A study of Mus musculus with 30 samples.

Results

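Genes for 10 enzymes and helpers that fold, trim and cross-link collagen were followed in RNA from regenerating mouse digit tips: the lysyl oxidases Lox, Loxl1, Loxl2, Loxl3 and Loxl4, the lysyl hydroxylases Plod1 and Plod2, the prolyl 4-hydroxylase subunit P4ha1, the collagen chaperone Serpinh1 (HSP47) and the propeptidase Bmp1. They were taken by symbol from the gene tables, and all 10 are among the 20321 genes listed and the 13793 tested. Adult male C57Bl/6 mice, 9 to 10 weeks old, had at most 33% of the distal phalanx (P3) of hindlimb digit 3 removed, and the wound healed without sutures. Digits of 30 mice were collected, 6 of them at 7 d and 3 at each of the other 8 times, which were 0 h, 3 h, 6 h, 12 h and 24 h and then 3 d, 14 d and 21 d. No unamputated digit was analysed here, so 0 h is the reference. Each library is poly(A) RNA of the collected P3 tissue of 1 mouse, and in such bulk tissue fewer cells of a type and less RNA per cell cannot be told apart.

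Collagen chains are hydroxylated on proline and lysine in the endoplasmic reticulum, where HSP47 binds the folded triple helix and escorts it onward. Outside the cell, BMP1 cuts off the C-terminal propeptide so that fibrils can form. Lysyl oxidases then oxidize lysine and hydroxylysine side chains, which join neighbouring molecules into cross-links, and bone, tendon and scar owe much of their stiffness to these cross-links.

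The coding sequence shows how alike the lysyl oxidases are at the stretch that codes for the copper-binding histidines of the catalytic domain. The 4 stretches below, of the lysyl oxidase-like genes, are shown because they code for part of the catalytic centre. That of Lox is not shown, and capitals mark the bases at which the 4 differ. They were read 5′ to 3′ along the coding strand of GENCODE transcripts on GRCm38, and each crosses an exon junction, so that the coordinates include an intron. They lie in coding exons at chr9:58293720-58294381 on the minus strand (Loxl1), chr14:69682316-69689037 on the plus strand (Loxl2), chr6:83049995-83050125 on the plus strand (Loxl3) and chr19:42598807-42599899 on the minus strand (Loxl4). 
Loxl1: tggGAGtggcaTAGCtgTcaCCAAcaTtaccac
Loxl2: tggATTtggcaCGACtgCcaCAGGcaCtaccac
Loxl3: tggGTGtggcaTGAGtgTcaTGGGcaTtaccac
Loxl4: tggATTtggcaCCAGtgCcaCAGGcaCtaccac
Of the 33 bases, 20 were shared by all 4 genes. Loxl2 and Loxl4 differed at 2 bases, Lox and Loxl1 at 1 base, and the other 8 pairs of the family at 8 to 12 bases.

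The similarity of these genes matters for reads that fit more than one place. Across whole transcripts, at most 0.0918% of the 31-base stretches of any member other than Loxl2 also occurred in another gene. Loxl2 (chr14:69609068-69695834, plus strand) shared 71.9% of its stretches with Gm21451, an unprocessed pseudogene at chr14:69390854-69480287 that has no row in the count table. The values of Loxl2 are therefore uncertain, because its reads could also come from that copy. Exons of Loxl3 overlapped those of Htra2 over 535 bases, those of Plod2 overlapped Gm38391 over 346 bases, and those of Loxl2 overlapped Gm27177 over 301 bases, all on the opposite strand. Whether the counting used strand is not given in the sources used here.

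The libraries held 3167625 to 16277816 expected counts each (median 6103688). Dates in the sample titles fall into an earlier set of 16 mice (median total 5083528) and a later set of 14 mice (median total 9836324), called campaigns here. All mice at 3 h and 12 h are from the earlier campaign and all at 21 d from the later, and of the 0 h mice 1 is earlier and 2 are later, which leaves few mice for a comparison within a campaign. At 7 d, 3 of the 6 mice carry the label of the left foot, and all other mice that of the right foot. These 3 left-foot mice are all of the later campaign, so foot and campaign are partly mixed at 7 d. No 2 libraries of a time point were alike within sampling noise (chi-square per degree of freedom of 9.83 to 94.7 over 39 pairs). The collection protocol gives 3 mice a time point and 6 at 7 d, and p-values measure the spread between these samples. In the titles, replicate 3 of 0 h and replicate 2 of 12 h share a tag and a date, and what the tag marks is not stated.

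Over the whole time course, 9 of the 10 genes changed, all but Loxl4, in edgeR's quasi-likelihood F-test over the 9 time points with Benjamini-Hochberg adjustment over all genes tested (adjusted p under 0.05). The background was 9.01%, or 1243 of 13793 genes. Adjusted p ran from 1.05e-07 (Loxl2) and 1.13e-05 (Lox) to 0.0236 (Plod1) and 0.0393 (Loxl1), and was 0.284 for Loxl4. Every gene had its highest mean at 14 d or 21 d. The highest mean was 7.87 times the lowest for Lox, 6.0 times for Loxl2, 4.86 times for Plod2 and 4.5 times for Serpinh1, and between 2.58 times (P4ha1) and 3.91 times (Loxl4) for the other 6. These means are in CPM, counts scaled to the TMM-normalized library size, a scale on which 1 gene is compared between mice. The call of Loxl1 was the least firm: it was lost in 15 of the 30 fits that each left out 1 mouse, with an adjusted p of up to 0.104. These were the fits without any mouse of 6 h, without replicate 1 or 2 of 0 h, 12 h or 21 d, replicate 2 or 3 of 14 d, replicate 3 of 3 h or 3 d, replicate 2 of 24 h or replicate 5 of 7 d. That of Plod1 was lost without replicate 2 of 3 h, replicate 2 of 6 h or replicate 3 of 6 h, with an adjusted p of up to 0.058. DESeq2 called 9 of the genes, and limma on log2(TPM + 1) called 7, without Loxl1 and P4ha1.

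**Figure D1:**
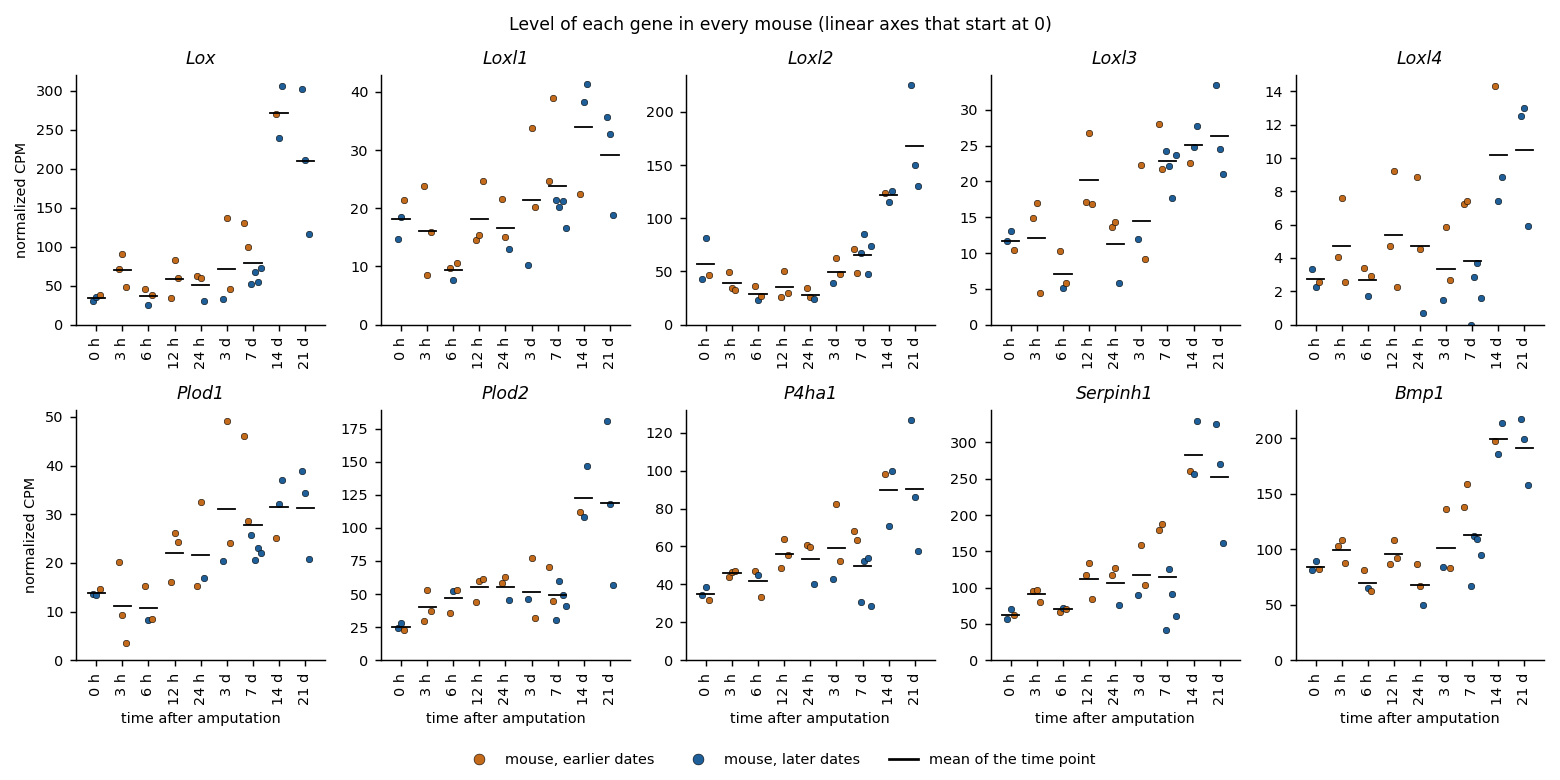
Normalized CPM of the 10 genes (vertical axes, linear and from 0, 1 panel a gene) against time after amputation, with 1 point a mouse, coloured by campaign, and a line at the mean of each time point. Lox lies between 24.7 and 137 CPM up to 7 d and between 116 and 307 CPM at 14 d and 21 d, while Loxl4 stays below 15 CPM in every mouse.

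Against 0 h, the same 6 genes were higher at 14 d and at 21 d: Lox, Loxl2, Plod2, P4ha1, Serpinh1 and Bmp1. At 14 d the background of genes called higher was 1.48%, and at 21 d it was 1.73%. No member was called lower at either time by edgeR, DESeq2 or limma. The share of all genes called lower at these times is not reported here. All 10 log2 fold changes were above 0 at both times, with a median of 1.30 at 14 d and 1.46 at 21 d, against a median of 0 over all genes tested. Both comparisons use the same 3 mice at 0 h. DESeq2 also called 6 genes higher at each time, and limma on log2(TPM + 1) called 4, Lox, Plod2, Serpinh1 and Bmp1 at 14 d and Lox, Loxl2, Plod2 and Serpinh1 at 21 d.

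**Figure D2:**
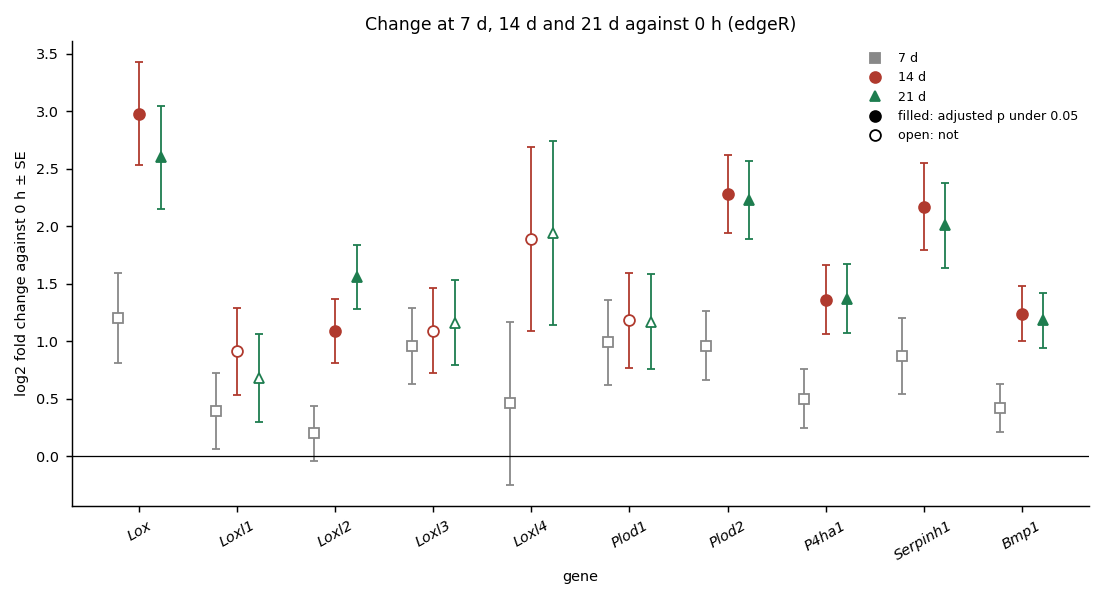
Log2 fold change against 0 h (vertical axis) for each gene at 7 d, 14 d and 21 d, from the edgeR fit. Bars are standard errors derived from the estimate and its F statistic, and symbols are filled for an adjusted p under 0.05. The same 6 genes are filled at 14 d and 21 d, with values from 1.09 to 2.98, and no symbol is filled at 7 d.

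Lox, the founding lysyl oxidase of collagen and elastin, had the largest change of the 10. At 0 h its level was 30.1, 35.6 and 38.2 CPM in the 3 mice. At 14 d it was 239, 271 and 307 CPM, and at 21 d it was 116, 211 and 302 CPM. Every mouse at 14 d and 21 d was above every mouse at 0 h. This was a change of 2.98 ± 0.45 on the log2 scale (adjusted p = 0.000241, edgeR) at 14 d and of 2.60 ± 0.45 (adjusted p = 0.000801, edgeR) at 21 d. Here and below, ± after a log2 change is a standard error derived from edgeR's estimate and its F statistic. Between 7 d (52.6 to 131 CPM, median 69.8, 6 mice) and 14 d, Lox rose by 1.78 ± 0.35 on the log2 scale (adjusted p = 0.0123, edgeR), and no mouse overlapped. This step lost its call without replicate 1 of 14 d or replicate 3 of 14 d, with an adjusted p of up to 0.107, and without the left-foot mice, where it was 0.2.

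Loxl2, a lysyl oxidase-like enzyme with scavenger receptor domains, had its lowest mean at 24 h and its highest at 21 d. Its level was 43.0, 46.7 and 81.5 CPM at 0 h, 23.8, 25.9 and 34.6 CPM at 24 h, and 130, 150 and 225 CPM at 21 d. The mice of 24 h lay below all mice of 0 h and those of 21 d above them. The log2 fold change at 6 h (-0.98, adjusted p = 0.215, edgeR) and 24 h (-1.02, adjusted p = 0.146, edgeR) did not pass the test. At 14 d the level was 115, 124 and 126 CPM, a log2 change of 1.09 ± 0.28 (adjusted p = 0.041, edgeR), and at 21 d the change was 1.56 ± 0.28 (adjusted p = 0.00156, edgeR). The call at 14 d was lost in 9 of the 30 fits that left out 1 mouse, those without replicate 1 or 3 of 0 h, any mouse of 14 d, replicate 3 of 6 h, replicate 3 of 12 h, replicate 2 of 24 h or replicate 3 of 3 d, with an adjusted p of up to 0.289.

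The other lysyl oxidase-like genes were lower in level and did not pass the test against 0 h. Loxl1, which acts on elastic fibres, had 14.7, 18.4 and 21.4 CPM at 0 h, 7.7, 9.72 and 10.6 CPM at 6 h and 22.4, 38.3 and 41.3 CPM at 14 d. Its log2 fold change at 14 d was 0.91 (adjusted p = 0.392, edgeR), although the mice of 14 d lay above those of 0 h. Loxl3 had 10.4, 11.7 and 13.1 CPM at 0 h and 21.0, 24.5 and 33.5 CPM at 21 d, a log2 fold change of 1.16 (adjusted p = 0.135, edgeR). Loxl3 stood at 17.7 to 28.0 CPM (median 23.0) at 7 d and at 22.6, 24.8 and 27.8 CPM at 14 d, a log2 change of 0.13 ± 0.31 with overlapping mice. Loxl4 was the least abundant member, with 2.24, 2.56 and 3.36 CPM at 0 h and 7.41, 8.84 and 14.3 CPM at 14 d. Its counts were 16 to 42 a mouse at 0 h and 72 to 102 at 14 d, and at 7 d they ran from 0 to 44, so the depth behind it is thin. Its log2 change of 1.89 ± 0.8 (adjusted p = 0.419, edgeR) at 14 d had the widest error of the 10 genes.

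Levels can be compared between genes as TPM, a share of all transcripts that takes length into account. The 5 lysyl oxidases together held 79.8 ± 16.0 TPM (SD, n = 3) at 0 h, 127 ± 39.7 (SD, n = 6) at 7 d, 296 ± 22.7 (SD, n = 3) at 14 d and 260 ± 84.1 (SD, n = 3) at 21 d. At 0 h, Loxl2 held the largest share of that sum, 49.2 ± 8.02% (SD), and Lox held 26.2 ± 4.26%. The order was turned at 3 h, with 46.9 ± 7.67% for Lox and 31.3 ± 5.35% for Loxl2. It was also turned at 12 h (40.1 ± 5.33% and 29.2 ± 3.09%) and 24 h (43.1 ± 4.62% and 29.6 ± 5.78%). At 6 h (40.0 ± 2.91% and 38.7 ± 2.92%) and 3 d (38.8 ± 10.0% and 38.0 ± 9.65%) the shares did not differ beyond their spread. At 7 d the shares were 37.5 ± 7.09% for Lox and 38.3 ± 8.74% for Loxl2. At 14 d they were 56.1 ± 2.05% for Lox and 29.8 ± 1.54% for Loxl2. At 21 d the shares were 43.1 ± 5.51% for Lox and 43.0 ± 5.39% for Loxl2, which did not differ beyond their spread. Loxl1 held 14.8 ± 3.04% at 0 h and 7.57 ± 2.2% at 14 d, and Loxl4 held 2.05 ± 0.821% and 2.03 ± 0.751%. The log2 ratio of Lox to Loxl1 within a mouse was 0.77 ± 0.08 (SD) at 0 h, 1.96 ± 0.97 at 3 h, 1.54 ± 0.45 at 7 d and 2.87 ± 0.47 at 14 d. It changed over the time course (permutation test of F over 30 mice, one-sided, 100000 resamples, p = 0.00191, adjusted p = 0.00382 over the 4 ratios tested).

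**Figure D3:**
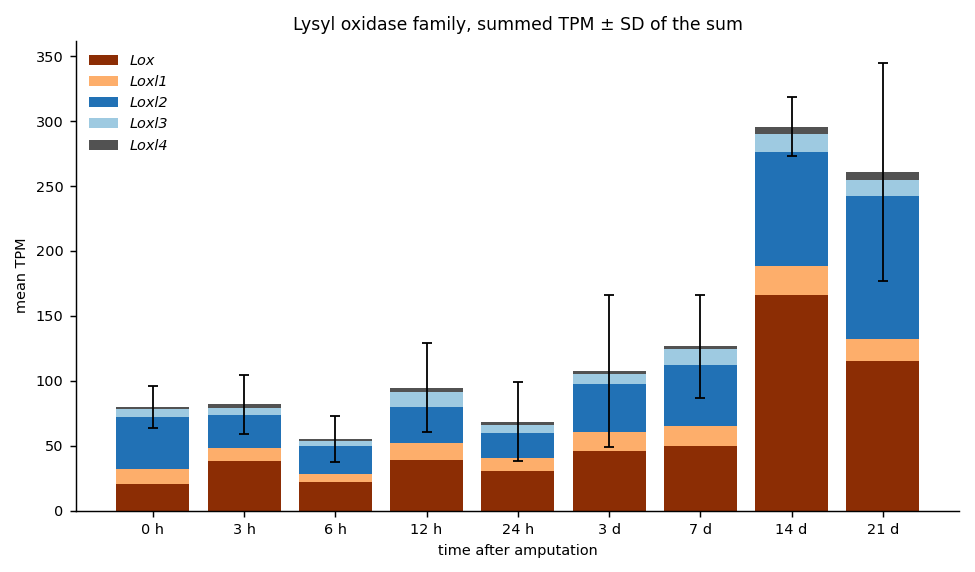
Mean TPM of the 5 lysyl oxidase genes (vertical axis, stacked bars from 0) at each time point, with the SD of their sum over mice (3 a time point, 6 at 7 d). The sum is 296 TPM at 14 d against 79.8 TPM at 0 h, and Lox makes up most of the difference.

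Among the lysyl hydroxylases, Plod2 rose and Plod1 did not pass the test against 0 h. Plod2, the enzyme that hydroxylates lysines of the collagen telopeptides, had 23.0, 24.2 and 28.4 CPM at 0 h, 108, 112 and 147 CPM at 14 d and 56.7, 118 and 181 CPM at 21 d. All mice of both late times lay above 0 h. The log2 changes were 2.28 ± 0.34 (adjusted p = 0.000206, edgeR) and 2.23 ± 0.34 (adjusted p = 0.000182, edgeR). The value was already 0.9 at 6 h, 1.13 at 12 h and 1.14 at 24 h, and every mouse of these times was above all 0 h mice, but the adjusted p was 0.479, 0.286 and 0.174 (edgeR). From 7 d (30.6 to 70.4 CPM, median 46.7) to 14 d, Plod2 rose by 1.32 ± 0.27 on the log2 scale (adjusted p = 0.0186, edgeR), without overlap. That call was lost without any 1 of the 3 mice of 14 d, with an adjusted p of up to 0.2. It was also lost without the left-foot mice, in a fit of only 7 d and 14 d, and with limma on log2(TPM + 1). Plod1, which hydroxylates lysines of the helix, had 13.5, 13.6 and 14.6 CPM at 0 h and 25.1, 32.1 and 37.0 CPM at 14 d, a log2 fold change of 1.18 (adjusted p = 0.225, edgeR). It was already at 20.4, 24.0 and 49.1 CPM at 3 d, a log2 fold change of 1.15 (adjusted p = 0.421, edgeR), and at 20.5 to 46.1 CPM at 7 d. All mice of these 2 times lay above those of 0 h.

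The log2 ratio of Plod2 to Plod1 was 0.63 ± 0.19 (SD, n = 3) at 0 h and highest at 6 h (1.85 ± 0.76). It was 0.55 ± 0.37 at 3 d and 0.63 ± 0.42 (n = 6) at 7 d, and stood again at 1.74 ± 0.2 at 14 d. The ratio changed over the time course (permutation test of F, p = 0.0158, adjusted p = 0.0211). The mice of 14 d (1.54, 1.77 and 1.92) lay above all mice of 7 d (0.08 to 1.3).

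P4ha1, a catalytic subunit of the prolyl 4-hydroxylase that stabilizes the triple helix, rose by a smaller amount. Its level was 31.8, 34.5 and 38.7 CPM at 0 h, 70.7, 98.4 and 100 CPM at 14 d and 57.5, 86.3 and 127 CPM at 21 d, with no overlap with 0 h. Its log2 changes were 1.36 ± 0.3 (adjusted p = 0.0104, edgeR) and 1.37 ± 0.3 (adjusted p = 0.00841, edgeR). Without replicate 1 or 3 of 0 h both calls were lost, as was that at 14 d without replicate 3 of 14 d and that at 21 d without replicate 1 of 21 d, with an adjusted p of up to 0.0777 at 14 d and 0.185 at 21 d. The log2 ratio of P4ha1 to P4ha2, the other main catalytic subunit, was 0.33 ± 0.55 (SD) at 0 h, 0.49 ± 0.29 at 24 h and -0.36 ± 0.37 at 7 d. It changed over the time course (permutation test of F, p = 0.0215, adjusted p = 0.0215), but the adjusted p was 0.133 without the left-foot mice, 0.0525 without replicate 3 of 7 d and 0.0568 without replicate 6 of 7 d.

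Serpinh1, the HSP47 chaperone, had the highest mean TPM of the 10 at all 9 time points. At 7 d its mice overlapped those of Bmp1 (115 ± 73.6 against 67.3 ± 27.9 TPM, SD, n = 6). Serpinh1 had 51.5, 60.6 and 63.5 TPM at 0 h, 246, 259 and 317 TPM at 14 d and 141, 248 and 275 TPM at 21 d. At 14 d these mice lay above those of Lox (152, 161 and 185 TPM), the next gene, while at 21 d the mice of both genes overlapped. The edgeR estimate was 4.5-fold at 14 d (adjusted p = 0.00105) and 4.02-fold at 21 d (adjusted p = 0.00202). From 7 d to 14 d the log2 change was 1.30 ± 0.3 (adjusted p = 0.0434, edgeR), a call that was lost in 25 of the 30 fits that left out 1 mouse, with an adjusted p of up to 0.299. It held without replicate 3 of 24 h, replicate 1 of 3 d, replicate 1 or 2 of 7 d, or replicate 3 of 21 d. At 7 d the 2 earlier mice had 180 and 188 CPM, and the 4 later mice 41.7, 60.6, 91.1 and 126 CPM. Of the later mice, those at 41.7, 60.6 and 126 CPM carry the left-foot label, so campaign and foot cannot be fully told apart here. Within the earlier campaign the difference between 14 d and 7 d was 0.5 on the log2(CPM + 1) scale (1 mouse against 2), and within the later it was 1.97 (2 against 4).

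The ratio of Serpinh1 to Col1a1, a chain of its substrate, was lower at the late times than at 0 h. Col1a1, the main chain of type I collagen, had a log2 fold change of 3.25 (adjusted p = 1.23e-05, edgeR) at 14 d and 3.20 (adjusted p = 1.02e-05, edgeR) at 21 d. Other chains rose less. At 14 d the log2 fold change of Serpinh1 was 2.17, below that of Col1a2 (2.4) and above that of Col3a1 (1.99). At 21 d Col1a2 (2.67) and Col3a1 (2.52) were both above Serpinh1. Ratios of Serpinh1 to these other chains were not tested. The log2 ratio of Serpinh1 to Col1a1 in TPM + 1 was -3.36 ± 0.59 (SD, n = 3) at 0 h, -1.86 ± 0.41 at 24 h, -4.56 ± 0.21 at 14 d and -4.7 ± 0.19 at 21 d. The mice of 14 d (at most -4.36) lay below those of 0 h (at least -3.96). All mice of 6 h, 12 h and 24 h (-2.55 to -1.57) lay above all mice of 7 d, 14 d and 21 d (-5.26 to -3.66). The ratio changed over the time course (permutation test of F, p = 1e-05, the smallest that 100000 resamples can give, adjusted p = 4e-05).

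**Figure D4:**
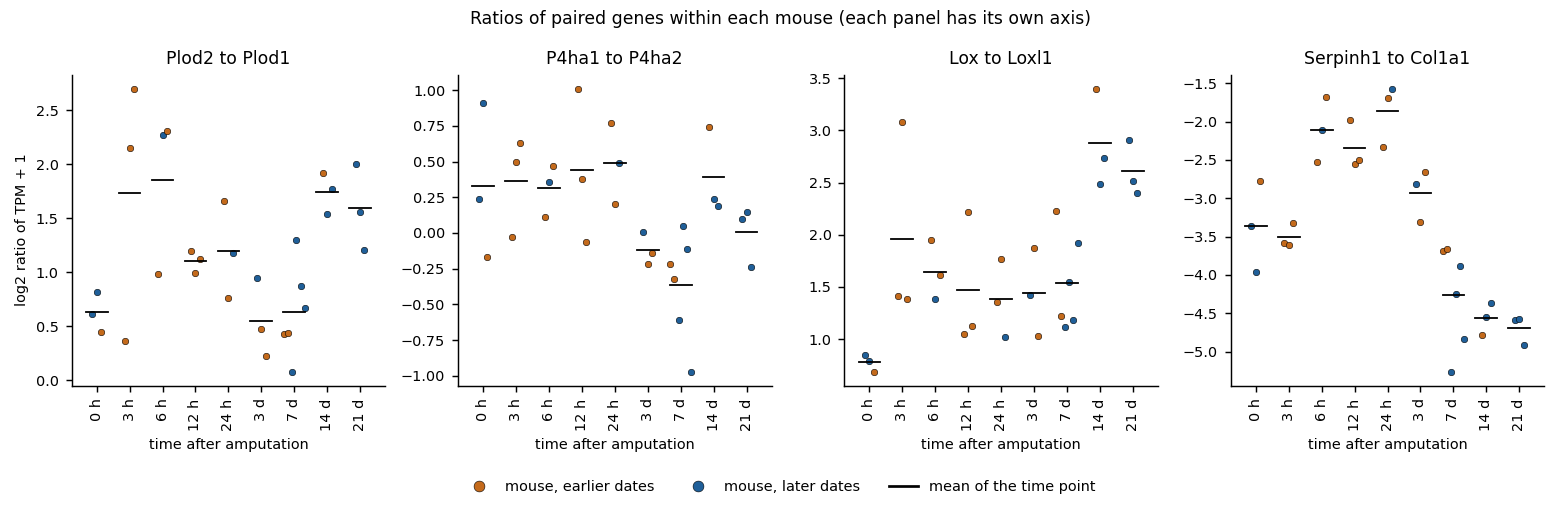
Log2 ratio of TPM + 1 within each mouse (vertical axes, 1 panel a ratio with its own range) against time after amputation, coloured by campaign, with a line at each mean. The ratio of Serpinh1 to Col1a1 falls from -1.86 at 24 h to -4.7 at 21 d, and that of Lox to Loxl1 is highest at 14 d (2.87).

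Bmp1, the procollagen C-proteinase, was second to Serpinh1 in TPM at 0 h. It had 81.0, 82.4 and 89.4 CPM at 0 h, 186, 198 and 214 CPM at 14 d and 158, 199 and 217 CPM at 21 d. These were log2 changes of 1.24 ± 0.24 (adjusted p = 0.00312, edgeR) and 1.18 ± 0.24 (adjusted p = 0.00425, edgeR). No mouse of either late time overlapped 0 h, and both calls held in every fit that left out 1 mouse. In TPM the order at 0 h was Serpinh1 (58.6 ± 6.27, SD), Bmp1 (47.8 ± 2.69), Loxl2 (39.9 ± 14.0), Lox (20.6 ± 3.28), P4ha1 (18.4 ± 1.26), Plod2 (14.7 ± 1.24), Loxl1, Plod1, Loxl3 and Loxl4. The mice of Bmp1 and Loxl2, of Lox and P4ha1, of Plod2 and Loxl1 and of Loxl1 and Plod1 overlapped there. At 14 d Lox had moved to the second place (166 ± 17.1 TPM).

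At the early times no member passed the test against 0 h in edgeR. The background was 0.254% at 3 h, 0.189% at 6 h, 0.167% at 12 h, 0.493% at 24 h, 0.551% at 3 d and 2.34% at 7 d. In the same order, at an unadjusted p under 0.05 there were 1, 3, 5, 4, 5 and 5 members. DESeq2 called 0 members at the first 5 of these times and 2 at 7 d, Lox and Plod2, and limma called 0 at all 6. At 6 h, 6 of the 10 genes had a log2 fold change under 0, and at 7 d all 10 were above 0, from 0.20 (Loxl2) to 1.2 (Lox).

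Between neighbouring time points, 3 members were called higher from 7 d to 14 d (Lox, Plod2 and Serpinh1), where the background was 0.355%. DESeq2 called 5 members in this step, limma 0 and edgeR without the left-foot mice 0, with 7 members at an unadjusted p under 0.05 in edgeR. In the other 6 steps edgeR called no member. The backgrounds were 0.16% from 3 h to 6 h, 0.0% from 6 h to 12 h, 0.0% from 12 h to 24 h, 0.0653% from 24 h to 3 d, 0.0145% from 3 d to 7 d and 0.0% from 14 d to 21 d. At an unadjusted p under 0.05 these steps held 3, 3, 2, 2, 0 and 0 members, and DESeq2 and limma called 0 in each. From 6 h to 12 h the log2 fold change of Loxl3 was 1.52 (adjusted p = 0.398, edgeR), and those of all 10 genes were above 0.

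Within campaigns, all 10 genes were higher at 14 d than at 0 h in both. The differences on the log2(CPM + 1) scale had a median of 1.49 in the earlier campaign (lowest 0.06, highest 2.79, 1 mouse against 1) and of 1.25 in the later (highest 3.01, 2 against 2). For Lox they were 2.79 and 3.01, and for Plod2 2.23 and 2.22. At 21 d, where the later campaign alone has mice, they ran from 0.73 to 2.54 (3 against 2). With campaign as a covariate, edgeR called 6 members higher at 14 d and 6 at 21 d. From 7 d to 14 d, 7 of the 10 genes were higher in the earlier campaign (-0.52 to 1.24, 1 mouse against 2) and 10 of 10 in the later (0.26 to 2.13, 2 against 4). In the edgeR test of an interaction between time and campaign over the 21 mice of the 6 times with both, no member was called, with 1 (Loxl1, adjusted p = 0.3) at an unadjusted p under 0.05 and a background of 0.883%.

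The partners of these enzymes were counted in lists. All 7 fibrillar collagen genes listed passed the test over the time course, and 6 were called higher at 14 d and 7 at 21 d, with a median log2 fold change of 2.4 and 3.03. Of 9 genes of prolyl hydroxylation, 7 passed over the time course and 4 were higher at 14 d, among them P4ha3 (2.46, adjusted p = 0.0016, edgeR) and Lepre1, the prolyl 3-hydroxylase 1 (2.40, adjusted p = 0.00012, edgeR). Leprel1, a prolyl 3-hydroxylase too, was highest at 3 h (57.2 ± 25.9 CPM, SD, n = 3) and lowest at 14 d (24.7 ± 3.14 CPM).

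Fkbp10, a chaperone that works with PLOD2, was highest at 14 d (131 ± 15.4 CPM) and lowest at 6 h (17.8 ± 5.54 CPM), with a log2 fold change at 14 d of 2.74 (adjusted p = 9.05e-07, edgeR). It and Tmem38b were the 2 of 5 genes of lysyl hydroxylation and glycosylation that passed over the time course. Of 8 tested genes of folding and export, 7 passed and 6 were higher at 14 d, among them Creb3l1, a transcription factor of collagen secretion (2.49, adjusted p = 0.000387, edgeR), and Sparc, a collagen-binding protein (1.96, adjusted p = 0.00043, edgeR). Of 6 tested genes of propeptide removal, 3 passed and 2 were higher at 14 d, Adamts3 and Pcolce. Pcolce, the enhancer of BMP1, had 98.9 ± 15.7 CPM at 14 d against 21.0 ± 4.21 CPM at 6 h.

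Of 12 fibril assembly partners, 9 passed over the time course, 2 were higher at 14 d (Postn and Efemp2) and 5 at 21 d. Periostin (Postn), which binds BMP1 and fibronectin, had a log2 fold change of 2.66 (adjusted p = 0.000866, edgeR) at 21 d. Some of the members are known to respond to low oxygen, and a list of 10 tested hypoxia-responsive genes was counted beside them. Of these, 2 passed over the time course, Egln3 and Vegfa, both highest at 3 d. The median log2 fold change of the list was 0.16 at 14 d and 0.36 at 21 d.

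RefSeq promoter sequences (GRCm38.p6) were found for 4 of the 10 genes: Loxl4, Plod1, P4ha1 and Serpinh1. Those of P4ha1 and Serpinh1 are shown because their mean levels at the 9 time points were the most alike of all 45 pairs of members (Pearson r = 0.988). The windows are the 250 bases before the start, at chr10:59323046-59323295 on the plus strand (P4ha1) and chr7:99353240-99353489 on the minus strand (Serpinh1). Capitals mark ACGTG, the only form of the core of the hypoxia response element that was searched, or its reverse complement CACGT. 
P4ha1: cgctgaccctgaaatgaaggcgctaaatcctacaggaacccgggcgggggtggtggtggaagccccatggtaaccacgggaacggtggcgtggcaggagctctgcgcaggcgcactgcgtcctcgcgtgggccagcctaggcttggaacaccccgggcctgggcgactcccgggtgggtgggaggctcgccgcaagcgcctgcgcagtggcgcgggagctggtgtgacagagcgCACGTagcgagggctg
Serpinh1: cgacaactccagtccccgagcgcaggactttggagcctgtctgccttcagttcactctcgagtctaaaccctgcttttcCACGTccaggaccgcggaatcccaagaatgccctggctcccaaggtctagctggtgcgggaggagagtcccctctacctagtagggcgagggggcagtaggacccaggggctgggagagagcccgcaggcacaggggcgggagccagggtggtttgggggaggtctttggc
The match starts at position -16 in P4ha1 and at -171 in Serpinh1, counted back from the start. Both strands were searched, and 16.6% of 32851 promoter windows of this length hold ACGTG. The windows of Loxl4 and Plod1 do not hold these letters. All 4 windows hold the GC box GGGCGG, as do 32.7% of all, and none overlaps the ACGTG match. The letters of the heat shock core, GAANNTTC or TTCNNGAA, are in none of the 4 windows and in 12.8% of all.

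Across the 9 time points, the means of the 10 genes had pairwise Pearson correlations from 0.486 (Loxl4 and Plod1) to 0.988, with a median of 0.817. The points share their libraries, and late times weigh most. Lox and Serpinh1 had r = 0.964, and Plod2 and P4ha1 had r = 0.964. Over 10857 genes with a mean of at least 5 CPM, the genes most like Lox were Surf4, a cargo receptor of the endoplasmic reticulum (r = 0.988), Ikbip (0.965) and Slc39a13, a zinc transporter (0.963). Those most like Loxl2 were Slc39a7 (0.994), Numbl (0.983) and Olfml3 (0.983). Those most like Serpinh1 were Ikbip (0.986), Txndc5 (0.977) and Bgn (0.969).

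Some markers of bone-forming cells were higher at the same times as the enzymes. The 8 osteoblast markers summed to 159 to 411 CPM at 0 h, 765 to 1680 CPM at 7 d, 1790 to 3280 CPM at 14 d and 2940 to 3800 CPM at 21 d, without overlap between 0 h and the late times. Most of the late sum was Ibsp, with a mean of 2900 ± 473 CPM (SD, n = 3) at 21 d. Of these 8, 4 were called higher at 14 d and at 21 d (Ibsp, Sp7, Alpl and Runx2). Bglap2 was highest at 3 h and at 0 in all mice of 3 d, and at 21 d the log2 fold changes of Bglap2 and Bglap, markers of mature osteoblasts, were -0.44 and -1.03, neither of them called. Phex passed over the time course but was not called at 14 d (log2 fold change 0.85, adjusted p = 0.798, edgeR) or 21 d (log2 fold change 0.90, adjusted p = 0.777, edgeR). The 6 fibroblast markers summed to 372 to 460 CPM at 0 h and 995 to 1330 CPM at 14 d, with 1 called higher (Col6a3), but the median log2 fold change of the list was 0.2 at 14 d and 0.16 at 21 d. The 6 chondrocyte markers summed to 186 to 274 CPM at 0 h and 365 to 533 CPM at 21 d, with 2 called higher at 21 d (Matn3 and Acan). Matn1 was at 0 in all mice of 0 h and 21 d and Matn3 in all mice of 0 h. The 6 keratinocyte markers summed to 61200 to 62900 CPM at 0 h, 31600 to 62700 CPM at 7 d, 28500 to 35500 CPM at 14 d and 26800 to 55400 CPM at 21 d. Their median log2 fold change was -0.35 at 14 d, and 0 of the 6 were called over the time course or against 0 h at 14 d or 21 d. The 5 osteoclast markers summed to 53.8 to 75.5 CPM at 0 h, were highest at 7 d (691 to 1960 CPM) and stood at 318 to 569 CPM at 14 d. Of the 4 tested, 3 were called higher at 14 d (Dcstamp, Ctsk and Acp5) and 1 at 21 d (Ctsk). The median log2 fold change of the list was 2.91 at 14 d and 2.46 at 21 d. The 5 erythroid markers had a median log2 fold change of -3.41 at 14 d and -4.47 at 21 d. Of them, 2 and 3 were called lower, without a share of all genes called lower to set beside these counts. The erythroid list summed to 66.3 to 476 CPM at 0 h and 5.65 to 33.5 CPM at 14 d. Of the 7 myeloid markers, 2 were called higher at 14 d and at 21 d, S100a8 (log2 fold change 7.96 at 14 d) and S100a9 (log2 fold change 6.59 at 14 d), and the list summed to 99.4 to 122 CPM at 0 h, 282 to 302 CPM at 14 d and 96.0 to 240 CPM at 21 d. The part of these cell types in the levels of the 10 genes was not tested.

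**Figure D5:**
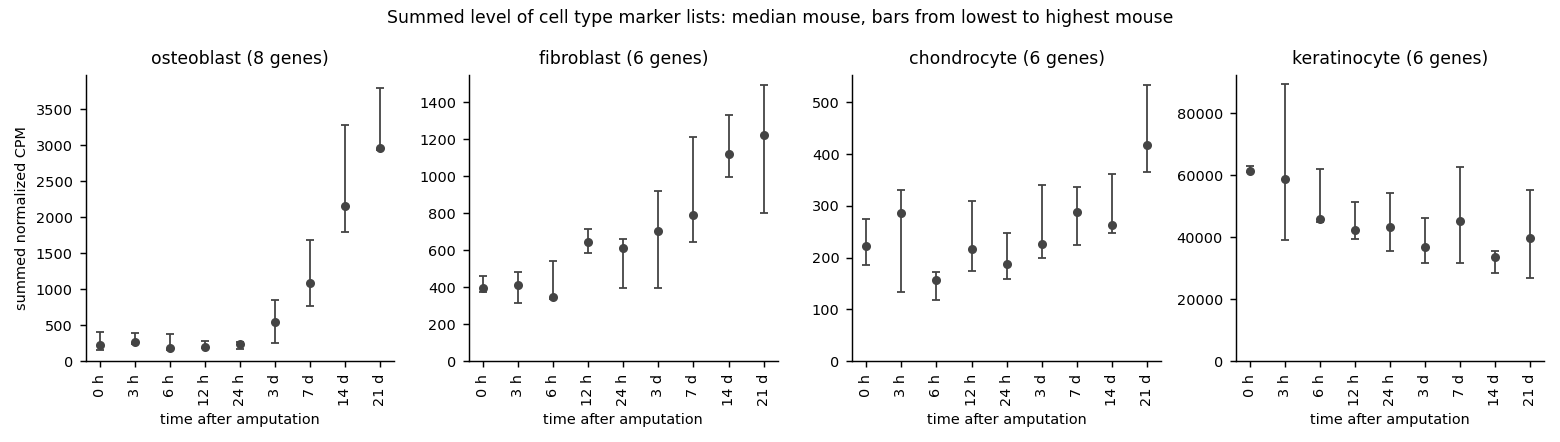
Summed normalized CPM of the markers of 4 cell types (vertical axes, linear and from 0) against time after amputation, with a point at the median mouse and bars from the lowest to the highest mouse. The osteoblast sum is at most 411 CPM at 0 h and at least 1790 CPM at 14 d. The keratinocyte sum is at least 61200 CPM at 0 h and at most 35500 CPM at 14 d, but reaches 62700 CPM at 7 d, and 0 of its 6 markers were called over the time course.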

How the data were processed

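RNA of 30 digits was measured by single-end RNA-seq (LM-Seq libraries of poly(A) RNA). Bowtie 0.12.8 was used by the authors to align reads to mouse genes of Ensembl v75, and RSEM 1.2.3 gave them an expected count and a TPM value per gene and mouse. The submitters' processing notes name mm10 and CASAVA 1.8.2. The deposited expected counts are not normalized, and 78.1% of them are whole numbers. The deposited TPM are relative to length and to all genes of a mouse. The deposited averages per time point were not used.

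Expected counts were rounded and tested with edgeR 4.0.16 in R 4.3.3 (TMM, filterByExpr with the time points as groups, 1 quasi-likelihood fit of all mice without covariates, Benjamini-Hochberg adjustment, threshold 0.05). The genes tested hold 99.9% of all counts. Ratios were compared on log2 of TPM + 1 by permutation (Python 3.11.15, numpy 2.4.6, pandas 2.3.3), and plots were drawn with matplotlib 3.10.9. The alternatives were DESeq2 1.42.0 size factors and its test, limma 3.58.1 on log2(TPM + 1), other count filters, campaign in the model, a fit without left-foot mice, a fit to just the 2 times at issue, 0.01 as the threshold, 0.1 as the pseudocount, and omission of each mouse in turn. The scripts were tested on simulated data.

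The members and lists were chosen with earlier results of these data known. Named genes are the members, list and marker genes that passed the test over the time course, and the 3 genes most like a member. Exceptions are Matn1, named for its level of 0, and genes that overlap or share sequence with a member. The genes most like Bmp1 are not reported here. Promoters are from RefSeq and other coordinates from GENCODE vM21, both on GRCm38. Counting error alone sets a limit of 3 counts where a mouse has 0.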

Additional observations from a re-analysis of the deposited data

Results flagged for a closer look

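The 6 mice of 7 d were searched for one that stood far from the other 5, in 14 measures (the 10 genes and 4 ratios). Dixon's ratio divides the distance of the end mouse to its neighbour by the range of all 6. Of these, 2 passed its 95% critical value. Chance flags about 1 in 20 groups, or 0.7 of 14. For Loxl1 the ratio was 0.642, with replicate 2 at 39.0 CPM and the other mice at 16.6 to 24.6 CPM. For Plod1 it was 0.679, with replicate 1 at 46.1 CPM and the others at 20.5 to 28.7 CPM. Both mice are from the earlier campaign, which holds 2 of the 6 mice of 7 d.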

How the results depend on the processing

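Of 3890 recomputed values of single members, 3780 kept their side of the threshold, 85 fell short of it and 25 newly passed it. No called value changed sign, and among the 3780 there were 54 values, called in neither setting, that did. With each mouse left out in turn, the number of members called was 7 to 9 over the time course, 4 to 6 at 14 d and 5 to 6 at 21 d against 0 h, 0 to 1 at 7 d, and 0 to 4 over the successive steps. It was 1 at 7 d without replicate 2 of 3 d (Lox), replicate 3 of 7 d (Serpinh1) or replicate 3 of 21 d (Plod2). At 7 d it was 2 with DESeq2, 1 with campaign as a covariate and 1 without left-foot mice. A fit of only the 2 times compared gave 1 member at 12 h, 1 at 24 h, and 9 at each of 14 d and 21 d. The share of all genes called in these other settings is not reported here, so their counts have no background beside them. Over the successive steps, against 3 members, it was 5 with DESeq2, 6 with campaign as a covariate, 1 with only the 2 times compared, and 0 without left-foot mice, with limma, or at a threshold of 0.01. It was also 0 without replicate 1 or 3 of 14 d and 1 without replicate 2. The ratio of P4ha1 to P4ha2 had an adjusted p of 0.133 without left-foot mice, and 0.0101 to 0.0568 with each mouse left out. The causes were not tested. Replicate numbers follow accession order, so no fit was paired by them. Dates in the titles that recur across time points entered only through the campaign. Depth limits Loxl4 most, with 0 to 202 counts a mouse.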
